A study of Mus musculus with 3 samples.

Results

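The genes of cystine uptake, transsulfuration and glutathione turnover, 9 in number, were followed through the binding maps of the transcription factors ATF4 and CEBPG in starved mouse fibroblasts. They are Slc7a11 for cystine uptake, Cbs and Cth for transsulfuration, Gclc, Gclm and Gss for glutathione synthesis, Gsr for glutathione reduction, and Chac1 and Ggct for glutathione breakdown. They were taken by name, as 9 of the 21887 protein-coding genes of the RefSeq table (GRCm38.p6, the same assembly as mm10). The choice was made with earlier results of these data known. A peak counted for a gene when it overlapped the gene span or the 20 kb on either side, and 12 of the 28061 peaks of both lists did so. The cells were wild-type mouse embryonic fibroblasts of the C57BL/6 strain, isolated at E13.5 and passaged, then held in ordinary medium for 24 hours and in amino acid deprived (AAD) medium for 3 hours. Chromatin was precipitated with a commercial ATF4 antibody (C-20), a C-terminal CEBPG antiserum of the submitters' laboratory, or a commercial GFP antibody, with 1 library each. The ATF4 list (2642 peaks) and the CEBPG list (25419 peaks) were used. The library made with the GFP antibody was not analysed here. No library of fed cells is among the samples, so the values describe the deprived state alone. With 1 library per antibody there is no replicate error, no test was made, and every value belongs to these libraries. Read counts were not used here, the depth behind each peak is unknown, and the ChIP signal carries no measure of gene expression or of cell identity.

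Cells import cystine, the oxidised form of cysteine, and reduce it inside. They can also make cysteine from methionine by transsulfuration. Cysteine is the limiting building block of glutathione, the main soluble thiol of the cell, which is built in a pair of ligase steps, cycled between reduced and oxidised forms, and broken down again to recover its amino acids. ATF4 is translated when amino acids run short. It is a basic leucine zipper (bZIP) protein that forms dimers with C/EBP proteins such as CEBPG, and these dimers are known to recognise a composite of a C/EBP site and an ATF site, the C/EBP-ATF response element (CARE).

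Of the 9 genes, 2 carried both factors, and in both cases the binding lay on the transcription start. Chac1, which encodes a cytosolic enzyme that cleaves glutathione, had an ATF4 peak of score 841.75 and a CEBPG peak of score 3100. Slc7a11, the transport subunit of the cystine-glutamate exchanger, had an ATF4 peak of 153.06 and a CEBPG peak of 3100. The score is the authors' own value for each peak, beginning at 40 in both lists, with medians of 45.9 (ATF4) and 47.2 (CEBPG). It serves to rank peaks within a list. Cth, Gclc, Gclm and Gsr had CEBPG peaks and no ATF4 peak, and Cbs, Gss and Ggct had no peak of either factor in the window. Among all protein-coding genes, 7.44% had an ATF4 peak in the same window, against 2 of the 9, and 1.78% had an ATF4 peak overlapping a CEBPG peak there, against the same 2 of 9. For CEBPG the background was 43.7%, against 6 of 9. At CEBPG scores of 100 or more it was 10.9%, against 3 of 9 (Slc7a11, Chac1 and Cth).

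**Figure D1:**
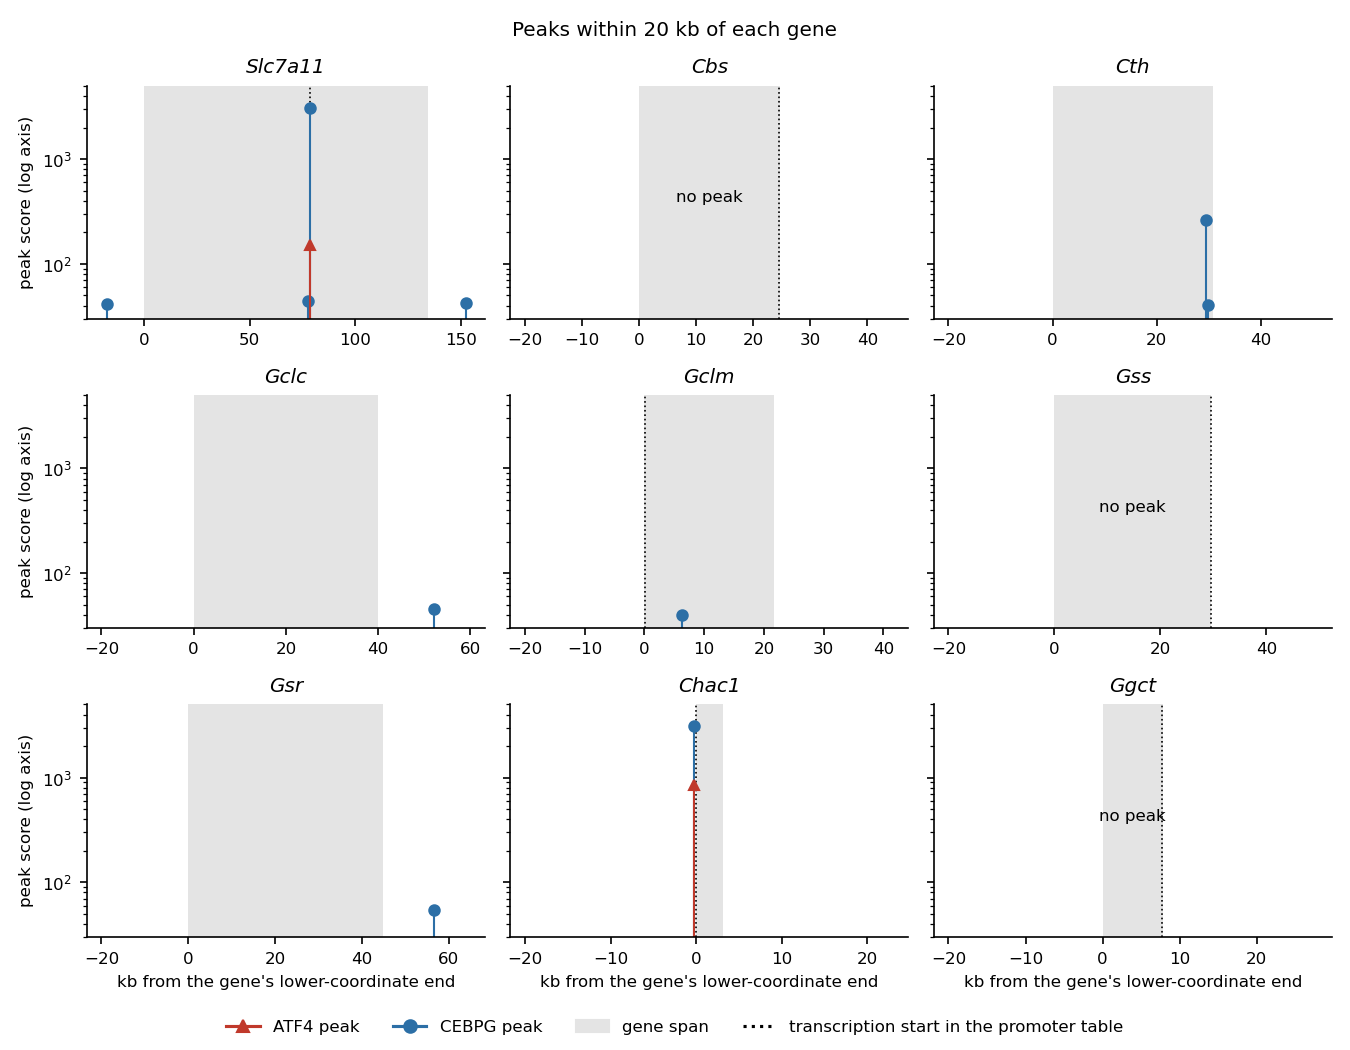
Peaks of ATF4 (triangles) and CEBPG (circles) within 20 kb of each of the 9 genes, placed by their centre in kb from the gene's lower-coordinate end, with the peak score on a log axis. Grey marks the gene span and the dotted line a transcription start where the promoter table gives one. Only Slc7a11 and Chac1 have both factors, on the start, and the CEBPG circles at Gclc, Gclm and Gsr lie between 40.06 and 54.32.

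The DNA under these sites is shown because both starts hold the composite element. The sequences are the 250 bases before the start, from RefSeq (GRCm38.p6), written 5′ to 3′ on the strand of the gene. They lie at chr2:119350992-119351241 on the plus strand for Chac1 and at chr3:50443614-50443863 on the minus strand for Slc7a11. Capitals mark the strict composite element, TGATGCAA or its reverse complement TTGCATCA, and at the very first bases of Chac1 an ATF-type element, TGACGCAA.
Chac1: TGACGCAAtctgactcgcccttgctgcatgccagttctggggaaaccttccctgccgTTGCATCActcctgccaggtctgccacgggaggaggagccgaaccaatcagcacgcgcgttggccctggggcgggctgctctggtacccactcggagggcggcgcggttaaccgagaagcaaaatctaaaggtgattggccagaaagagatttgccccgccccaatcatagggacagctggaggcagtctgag
Slc7a11: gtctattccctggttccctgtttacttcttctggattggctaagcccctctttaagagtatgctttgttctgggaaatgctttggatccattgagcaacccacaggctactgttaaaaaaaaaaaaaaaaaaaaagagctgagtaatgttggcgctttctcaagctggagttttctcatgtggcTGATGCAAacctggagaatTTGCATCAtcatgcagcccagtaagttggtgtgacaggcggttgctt

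Slc7a11 holds the strict composite element at 2 places that face each other. Positions are counted from the start, with negative numbers before it and no position of zero. The first starts at -66 and reads in the direction of the gene. The second starts at -47 and reads against it, with 11 bases between them. Chac1 holds 1, starting at -193 and reading against the gene. Each lies inside both the ATF4 and the CEBPG peak. Those peaks cover all 300 bases of the window searched, except the ATF4 peak of Slc7a11, which covers 259. Almost any match in the window would therefore lie inside both peaks, so this position does not set the element apart. At Slc7a11 the centres of the elements are 37 and 18 bp from the centre of the ATF4 peak, and 66 and 47 bp from the CEBPG centre. At Chac1 the element is 80 bp from the ATF4 centre and 15 bp from the CEBPG centre. Turned to the same strand and printed with 6 flanking bases on each side to show what they share, the 3 elements read as follows.
Slc7a11 at -66: tgtggcTGATGCAAacctgg
Slc7a11 at -47: gcatgaTGATGCAAattctc
Chac1 at -193: caggagTGATGCAAcggcag

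Outside the element the 3 sequences shared little. Of the 12 flanking bases, the 2 Slc7a11 elements had 2 in common, and the Chac1 element had 2 in common with the first and 1 with the second. The strict element is rare in promoters. Over all 32851 promoters of the RefSeq table (27025 genes, windows of 300 bases from 250 before to 50 after a start), 294 held it on either strand (0.895%). At least 2 copies were found in 2 promoters of the whole table, and Slc7a11 was the 1 of them with a peak of either factor. The looser form TGATGNAA, which includes the strict one, was present in 3.97% of promoters. The ATF-type element TGACGCAA of Chac1, searched after this promoter had been read, starts at -250, the edge of the window, and was present in 0.490%. Its centre is 23 bp from the ATF4 centre, nearer than the composite element of Chac1, and 42 bp from the CEBPG centre.

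Of the 9 genes, 6 have a promoter in the table, and the 4 without a peak on it held no match to the composite element in either form. These are Cbs, Gclm, Gss and Ggct. Gclm, the regulatory subunit of glutamate-cysteine ligase, and Ggct, a cyclotransferase acting on gamma-glutamyl amino acids, held matches to the core of the antioxidant response element (TGACNNNGC, the site of NRF2), 1 in Gclm at -134 and 2 in Ggct at -174 and 6. This core is common, with 12.4% of promoters holding it. Slc7a11 also had 2 matches to a relaxed C/EBP site (TTGCNNAA, present in 10.8% of promoters), at -160 and -6, both inside both peaks. The match at -6 is 23 bp from the ATF4 centre and 6 bp from the CEBPG centre, nearer to the latter than either composite element. The match at -160 is 131 and 160 bp away. No match to the cAMP response element TGACGTCA (1.79% of promoters) or the AP-1 element TGANTCA (7.81%) was found in any of the 6. Searches covered both strands, and a match is a description of the letters in this window.

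**Figure D2:**
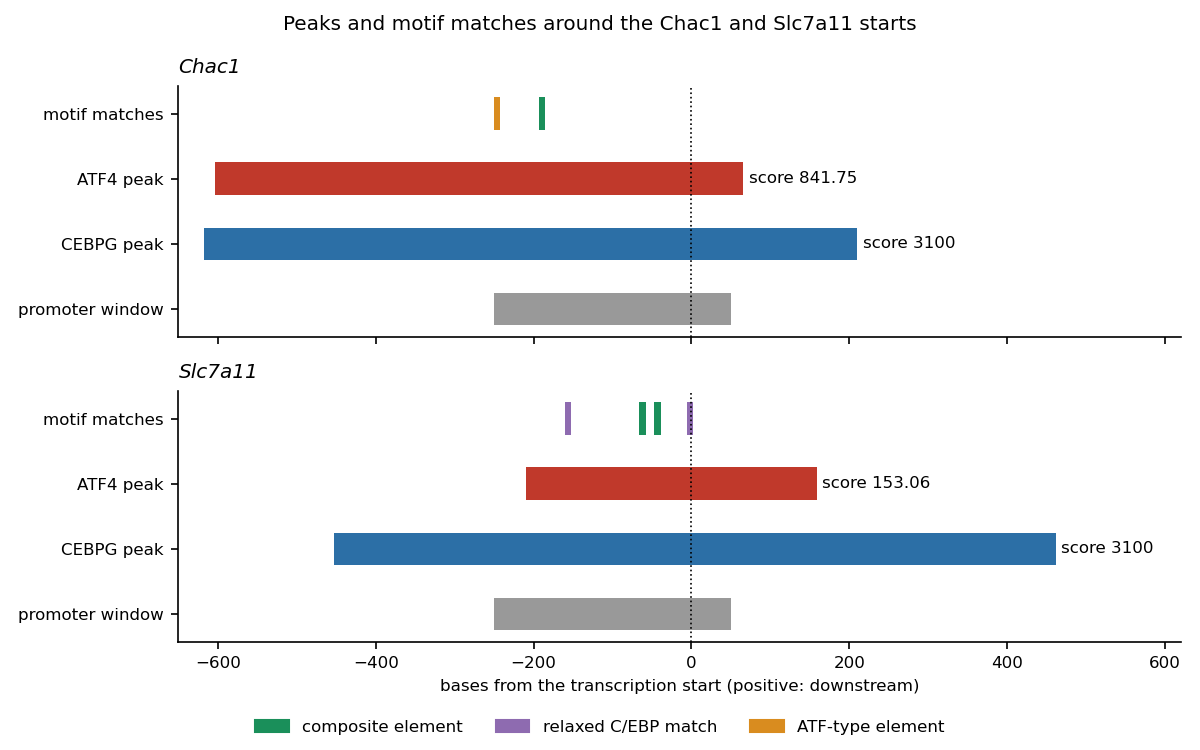
Extent of the ATF4 and CEBPG peaks around the Chac1 and Slc7a11 starts, in bases from the transcription start on the strand of the gene, with motif matches in the 300-base promoter window (grey bar). Each composite element lies under both peaks, 1 in Chac1 and 2 in Slc7a11, and the ATF4 peak of each gene lies within its CEBPG peak. The peaks cover the whole window, except the ATF4 peak of Slc7a11 (259 bases), so almost any match in it lies under both.

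Promoter binding was uncommon in both lists. An ATF4 peak overlapped 0.146% of promoters in the table (48 of 32851) and a CEBPG peak 1.25% (410), against 2 of the 6 genes with a promoter sequence for each factor. By distinct peaks, 40 ATF4 peaks lay on a promoter and 26 of these overlapped a CEBPG peak. The Chac1 peak had the highest score of the 40. The Slc7a11 peak was at rank 9, between those of Psat1 (180.22) and Gpt2 (152.73). Of the 33 promoters with both kinds of peak, among them Chac1 and Slc7a11, 13 held the strict element (39.4%, 95% Wilson interval 24.7 to 56.3%). The share was 9.55% (6.98 to 12.9%) of the 377 promoters with CEBPG alone and 0.756% (0.667 to 0.856%) of the 32426 with neither. None of the 15 promoters with ATF4 alone held it, which allows a share of up to 20.4%. The relaxed C/EBP match was in 18.2% (8.61 to 34.4%) where both factors lay and 25.2% (21.1 to 29.8%) with CEBPG alone. It was in 33.3% (15.2 to 58.3%) with ATF4 alone and 10.6% (10.3 to 11.0%) with neither. The intervals of the classes with a peak overlap, so these shares give no order among them. The ATF-type element TGACGCAA, searched after the Chac1 promoter had been read, was in 18.2% (8.61 to 34.4%) of promoters with both, Chac1 among them. It was in 11.4% (8.58 to 15.0%) of those with CEBPG alone, 0% (up to 20.4%) with ATF4 alone and 0.345% (0.287 to 0.415%) with neither. The intervals cover counting error only. Some genes have several promoters, and overlapping windows share sequence.

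**Figure D3:**
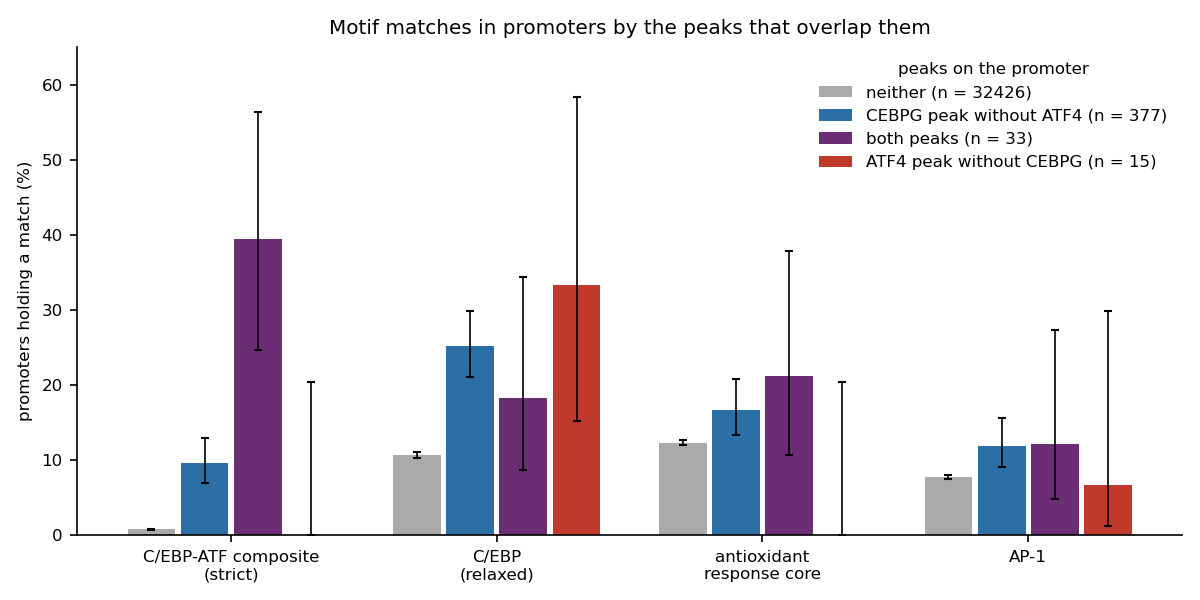
Percent of promoters (windows of 300 bases) holding a match to each of 4 motifs on either strand, by the peaks that overlap the promoter, with 95% Wilson intervals. The strict composite element, present in Chac1 and Slc7a11, reaches 39.4% of promoters with both peaks and 0.756% of those with neither.

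Chac1 (chromosome 2, 119351242 to 119354326) is a short gene of 3085 bp on the plus strand. Its ATF4 peak covered 119350638 to 119351307 and was 670 bp wide, against a median width of 164 bp in the ATF4 list. Its CEBPG peak covered 119350624 to 119351451 and was 828 bp wide, against a median of 131 bp. Both covered all 300 bases of the promoter window. The ATF4 peak was centred 269 bp and the CEBPG peak 204 bp before the start. The score of 841.75 was the second of the ATF4 list (rank 2 of 2642) and the highest among the 400 ATF4 peaks that overlap a CEBPG peak. No other peak of either list lay in the window.

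Slc7a11 (chromosome 3, 50364936 to 50499087) has the longest span of the 9 genes, 134152 bp, and its annotated start lies well inside it. The promoter table places this start at 50443613. The ATF4 peak (50443455 to 50443822, 368 bp wide) was centred 25 bp before it and the CEBPG peak (50443152 to 50444066, 915 bp wide) 4 bp after it, and they covered 259 and 300 of the 300 promoter bases. The centre of the ATF4 peak is 55448 bp from the nearest end of the span. The ATF4 score was rank 70 of 2642, within the top 2.65% of the list. There were 3 further CEBPG peaks, all weak. The closest, with score 44.21, was centred 1269 bp after the start. The others were 17286 bp below the span (41.78) and 17962 bp above it (41.99). These outer peaks are the ones just inside the 20 kb limit of the window. Just outside it lay CEBPG peaks at 27.0 kb from Cth (45.2), 27.8 kb from Gsr (44.24), 28.1 kb from Gclc (41.53) and 29.8 kb from Gclm (148.47, nearest to Dnttip2), none of which was counted.

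Chac1 and Slc7a11 differed in ATF4 score and were tied in CEBPG score. Both CEBPG peaks had the score 3100, which 38 CEBPG peaks share and only 4 exceed, so CEBPG strength at Chac1 and Slc7a11 cannot be ordered. Of those 38 peaks, 36 overlapped an ATF4 peak, with ATF4 scores from 41.61 to 841.75 and a median of 172. Chac1 was the highest of the 36, and Slc7a11 was rank 23, below the median. The ATF4 peak lay wholly within the CEBPG peak at both genes. The centres of the peaks were 65 bp apart at Chac1 and 29 bp apart at Slc7a11.

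Cth, which releases cysteine from cystathionine in the last step of transsulfuration, was the third gene with a CEBPG peak of 100 or more. The peak had a score of 263.49, rank 1301 of 25419 (within the top 5.12% of the list), and covered chromosome 3 from 157923466 to 157923862. It lies inside the gene, centred 1417 bp from the higher-coordinate end of the span (157894248 to 157925081). A second peak of 40.11, barely above the lowest score in the list, was centred 1075 bp from the same end. The nearest ATF4 peak of any score was 184 kb away (41.25), nearest to Ptger3. Cbs, which makes the cystathionine that Cth cleaves, had no peak within 20 kb. Its nearest peaks, 68.7 kb (CEBPG, 42.36) and 71.1 kb (ATF4, 43.86) away, were both nearest to Ndufv3.

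The genes of glutathione synthesis and reduction carried only weak CEBPG peaks or none. Gclc, the catalytic subunit of glutamate-cysteine ligase, had 1 peak of 45.74, which lay 11998 bp above the gene span and overlapped the long non-coding gene Gm34654. Gclm had 1 of 40.06 inside the gene, centred 6299 bp after the start. Gsr, which restores reduced glutathione with NADPH, had 1 of 54.32, at 11689 bp above the span. Of the CEBPG list, 60.2% of peaks had scores under 50, as did 6 of the 10 CEBPG peaks at the 9 genes. Gss, glutathione synthetase, had none, and its nearest CEBPG peak was 93.7 kb away (40.48). ATF4 was also distant from these genes. The nearest ATF4 peak was 68.6 kb from Gclc (43.33), 157 kb from Gclm (237.73, nearest to Abca4), 1120 kb from Gss (42.59) and 1290 kb from Gsr (46.64).

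The other cyclotransferase gene, Ggct, contrasted with Chac1. It had no peak within 20 kb, and the peaks closest to it, a CEBPG peak of 272.35 at 44.8 kb and an ATF4 peak of 51.78 at 45.9 kb, were nearest to Gars, the glycyl-tRNA synthetase gene. Over all 9 windows (697 kb), the density was 14.4 CEBPG and 2.87 ATF4 peaks per Mb, against 9.58 and 0.996 per Mb over the 2653 Mb between the outermost peaks of each chromosome. The ATF4 figure rests on the 2 peaks at Chac1 and Slc7a11, and the CEBPG figure on 10 peaks, 4 of them at Slc7a11. The windows hold genes and their flanks, whereas the 2653 Mb also take in stretches far from genes.

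Against all genes, the 2 bound genes took different places. By the highest ATF4 score within 20 kb, Chac1 was first and Slc7a11 was rank 83 of the 1628 genes with any ATF4 peak there. Chac1 shared the first rank with its neighbour Dll4, which lies 15576 bp away and was counted through the same peak (841.75, nearest to Chac1). Genes counted through the same peaks, such as Dll4 for Chac1, were left out of the search for similar genes, and 1 gene was kept for each other peak. Among the rest, the genes whose pair of top scores was most like that of Slc7a11, by distance on the log10 scale over the 2 lists, were Ero1a (159.56 for ATF4, 3100 for CEBPG), Atpif1 (164.36, 3100) and Serpinh1 (142.05, 3205.56), at distances of 0.0181, 0.0309 and 0.0355. The Ero1a site is nearest to Psmc6, and the Atpif1 site to Sesn2. For Chac1 they were Gm42048 (771.89, 3100), Lcorl (551.86, 3100) and Lrp1 (526.4, 2510.62), at 0.0376, 0.183 and 0.223. The Lrp1 site is nearest to Shmt2, the mitochondrial serine hydroxymethyltransferase gene. The likeness was measured over 2 lists only, and for Ero1a, Atpif1, Gm42048 and Lcorl it rests on the ATF4 score alone, since their CEBPG peaks share the tied score of 3100.

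**Figure D4:**
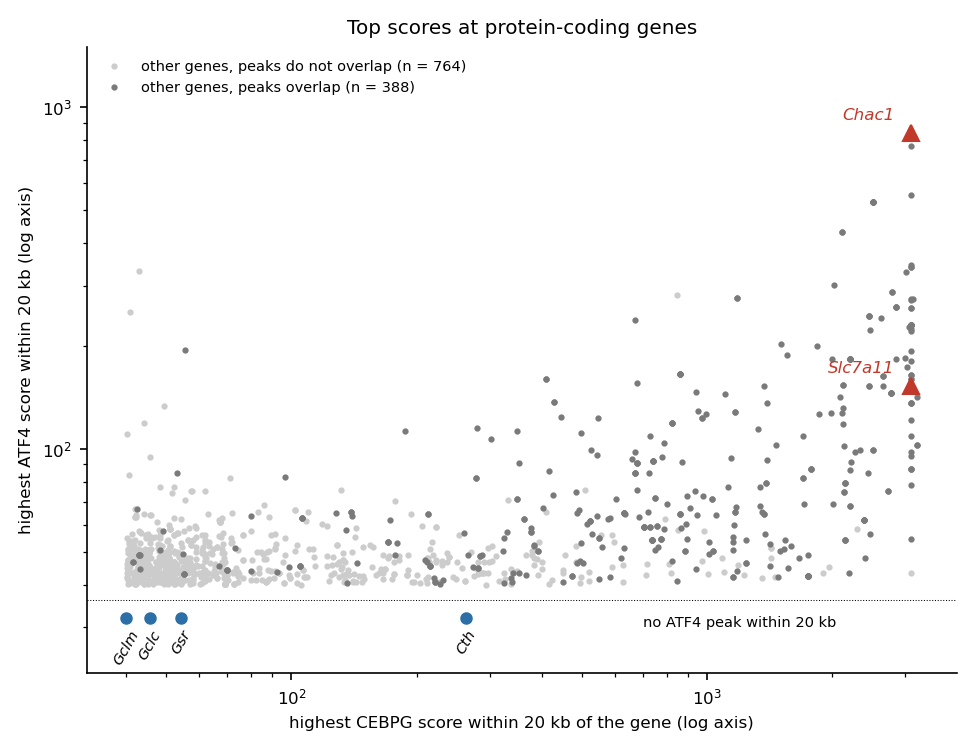
Highest ATF4 score against highest CEBPG score within 20 kb of each protein-coding gene that has both, on log axes, with the genes whose peaks overlap in dark grey. Chac1, at the same point as Dll4, is the highest in ATF4 score and Slc7a11 lies below it at the same CEBPG score of 3100, and the genes with a CEBPG peak alone (Gclm, Gclc, Gsr and Cth) are placed below the dotted line.

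The surrounding pathway was read from 8 further lists of 80 genes. Of these, 7 (8.75%) had an ATF4 peak in the window and 39 (48.8%) a CEBPG peak, near the 7.44% and 43.7% of all protein-coding genes. Overlapping peaks were at 3 of the 80 (3.75%, against 1.78% of all protein-coding genes). CEBPG peaks of 100 or more were at 14 (17.5%, against 10.9%). These differences were not tested. In the list of cystine and cysteine transport, 4 of 7 had a CEBPG peak and 2 an ATF4 peak. Slc3a2, the heavy chain that pairs with Slc7a11, had a CEBPG peak of 2703.73 inside the gene and no ATF4 peak. Slc1a5 (1043.53), Slc1a4 (520.72) and Slc1a1 (61.25), which carry neutral amino acids or cysteine, had CEBPG peaks too. ATF4 peaks were at Slc1a4 (40.87), 8204 bp outside the gene and away from its CEBPG peak, and at Slc3a1 (50.89), which had no CEBPG peak.

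In the methionine cycle, which feeds transsulfuration, 5 of 12 genes had a CEBPG peak and 2 an ATF4 peak. The shares of all protein-coding genes were 43.7% and 7.44%. Ahcyl1, related to the hydrolase of S-adenosylhomocysteine, had overlapping peaks of 49.13 (ATF4) and 1011.55 (CEBPG) outside the gene. Ahcyl2 had an ATF4 peak of 331, at 19669 bp from the gene and nearest to Smo, and a CEBPG peak of 42.94 elsewhere. CEBPG values at Mtr (50.35) and Bhmt2 (45.25, nearest to Dmgdh) were low. Mat2a, Mat2b and Ahcy, also of this list, had no peak of either factor. In cysteine catabolism and sulfide oxidation 5 of 11 had a CEBPG peak. Got1, the cytosolic aspartate aminotransferase, had overlapping peaks at the gene (55.08 for ATF4, 1151.91 for CEBPG), and its promoter, overlapped by the ATF4 peak, held 1 strict composite element. Got2 was counted through a CEBPG peak of 1083.45 that is nearest to Slc38a7. Cdo1, cysteine dioxygenase, had an ATF4 peak of 46.64 and a CEBPG peak of 48.46 that did not overlap, and Ethe1 had a CEBPG peak of 54.76.

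Of 12 other genes of glutathione breakdown and the gamma-glutamyl cycle, 0 had an ATF4 peak and 6 a CEBPG peak. Among all protein-coding genes the shares were 7.44% and 43.7%, and at 7.44% a list this small can hold none. The highest CEBPG scores were at Dpep2 (123), Oplah (96.03), Lap3 (82.13, nearest to Clrn2) and Dpep1 (44.43, nearest to Chmp1a). Chac2, the other ChaC family member, had a CEBPG peak of 43.83 that is nearest to Asb3. Among glutathione peroxidases and glutaredoxins, 5 of 10 had a CEBPG peak. Gpx7 was counted through overlapping peaks 19600 bp away and nearest to Shisal2a (58.91 for ATF4, 727.14 for CEBPG). Gpx4 (61.53), Glrx (57.03) and Glrx3 (45.25) had low CEBPG values. Glutathione transferases had the lowest CEBPG share of the lists, 5 of 15 (33.3%, against 43.7% of all protein-coding genes). The difference was not tested. No score was above the 52.96 at Gsta2, followed by Mgst3 (49.49), Mgst1 (46.05) and Gstm1 (41.08, nearest to Gstm4). An ATF4 peak was at 0 of the 15.

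The thioredoxin system, the other thiol-reducing pathway, had a CEBPG peak at 4 of 7 genes and an ATF4 peak at 0. Of these 4, the scores at Txnrd1 (127.06), Txnip (110.3) and Txn1 (42.94), which do not include the highest of the list, belong to peaks that lie outside these genes and are nearest to Hcfc2, Polr3gl and Txndc8. Of the transporters that export glutathione or carry it into mitochondria, 5 of 6 had a CEBPG peak and 0 an ATF4 peak. Slc25a39, the mitochondrial glutathione carrier, had the highest (410.94), inside the gene, and Abcc5 (103.1), Slc25a40 (68.27) and Abcc4 (48.17) followed. The all-gene shares beside the counts of both lists were 43.7% (CEBPG) and 7.44% (ATF4), and no difference was tested.

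**Figure D5:**
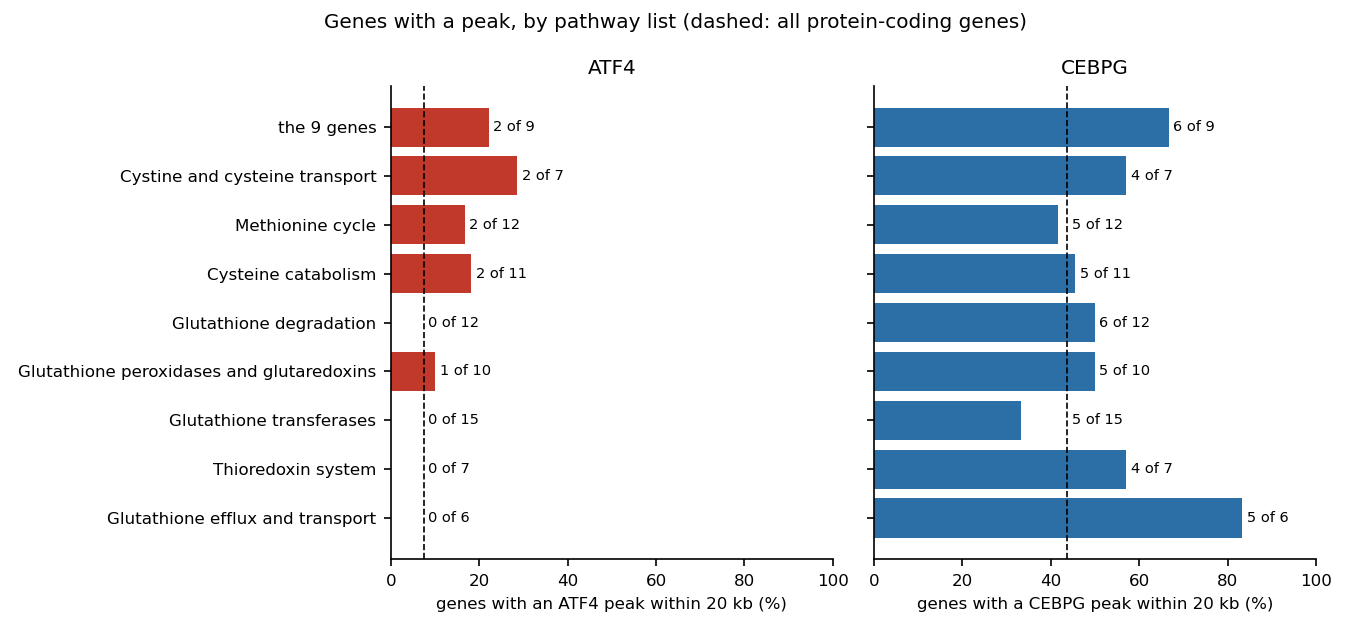
Percent of genes with an ATF4 peak (left) or a CEBPG peak (right) within 20 kb, for the 9 genes and 8 lists of related genes, with the counts beside the bars and the share of all protein-coding genes as a dashed line (7.44% and 43.7%). ATF4 peaks are at 2 of the 9 genes and at 0 genes of 4 lists.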

How the data were processed

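Binding was measured by ChIP-seq with single-end reads of 36 bp, 1 library per antibody. Per the submitters' processing notes, the build was mm10 and the tools included MACS 1.4.2, HOMER, BWA and Trimmomatic, without settings. The control used to call peaks is not given in the sources used. Each line of the deposited lists gives a peak's start and end, and its score closes the peak name. The scale of this score, set by the authors, is not stated. Library depth is unknown.

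Positions were made 1-based. Gene spans, symbols and promoters came from RefSeq tables of GRCm38.p6, with promoters matched by gene ID (6 of the 9 genes). Peaks were assigned to every gene whose span or flanking 20 kb they overlapped, and peaks of the 2 lists were shared when they overlapped by at least 1 bp. Nearest genes were taken from peak centres. Motifs were matched as exact letters on both strands, overlaps included, in the promoter windows; no genome sequence was used, so peaks outside promoters were not searched. Named genes were the 9 genes, each related gene with an ATF4 peak, up to 4 genes per list with the highest CEBPG scores, the genes nearest to peaks and, for the 2 genes with both factors, the 3 genes most alike in top scores. Mat2a, Mat2b, Ahcy, Chac2, Dll4, Psat1 and Gpt2 fall outside this rule and were chosen after their values were seen. Values of some genes that the rule names are not reported here. The 9 genes, the lists and the motifs were chosen with earlier results of these data known, and the element TGACGCAA was added after seeing the data. Counting was tested on simulated data. Python 3.11.15, pandas 2.3.3, numpy 2.4.6 and scipy 1.17.1 were used. Alternatives changed the window, the score minimum, the assignment of peaks, the overlap rule and the pool of genes.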

Additional observations from a re-analysis of the deposited data

How the results depend on the processing

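Slc7a11 and Chac1 were the 2 genes with an ATF4 peak, and the 2 with overlapping peaks, with windows of 0, 5 and 20 kb, with peak centres, with score minima of 50 and 100, and with peaks given to the nearest gene only. Within 50 kb Ggct joined them, for 3 genes, through peaks nearest to Gars. When the shared stretch had to fill 50% of each peak, 1 gene was left, Chac1, because the ATF4 peak of Slc7a11 (368 bp) is less wide than its CEBPG peak (915 bp). The number of genes with a CEBPG peak was 4 in the gene span, 4 within 5 kb, 7 within 50 kb, 4 at scores of at least 50, and 3 at scores of at least 100 in place of 6. The background moved with the same choices. For ATF4 it was 3.94% in the gene span, 4.94% within 5 kb and 12.0% within 50 kb, and for CEBPG 23.4%, 29.9% and 62.5%. At scores of at least 50 and 100 it was 2.86% and 0.635% for ATF4, and 24.9% and 10.9% for CEBPG. For overlapping peaks it was 0.804% in the gene span, 2.95% within 50 kb and 0.886% under the 50% rule. With the nearest gene only, the background was 5.62% (ATF4), 32.2% (CEBPG) and 1.21% (overlapping). Over all genes of the table in place of protein-coding ones it was 6.01% for ATF4, 37.8% for CEBPG and 1.27% for overlapping peaks. No paired analysis was possible because each antibody has 1 library. Unknown depth limits the list lengths, and a gene without a peak may hold binding below the authors' threshold.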

Other observations

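Genes that mark fibroblasts and other cells were counted in the same way, against 43.7% of all protein-coding genes with a CEBPG peak and 7.44% with an ATF4 peak. Of 10 fibroblast markers, 7 had a CEBPG peak within 20 kb and 1 an ATF4 peak, Col1a2 (50.52). The highest CEBPG scores were at Col3a1 (253.83), Thy1 (164.13, nearest to Usp2), S100a4 (131.07, nearest to S100a3) and Col1a1 (117.85). Of 12 markers of macrophages, endothelium, epithelium and neurons, 7 had a CEBPG peak and 2 an ATF4 peak, Syt1 (58.53) and Ptprc (46.71). Their highest CEBPG scores were 142.94 at Syt1, 79.02 at Cd68 (nearest to Eif4a1), 72.16 at Kdr and 61.03 at Cdh5. A peak near a marker gene gives no measure of its expression.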
